A study of Mus musculus with 18 samples.

Results

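The genes described here are 43 that serve DNA replication and S phase, listed by symbol and found by Ensembl ID in mouse acute myeloid leukemia (AML) driven by MLL/ENL and Nras. They were set into 6 roles: 10 for licensing of origins, 6 for activation of the helicase, 11 for the polymerases, clamp and clamp loader, 5 for strand processing, 5 for nucleotide supply, and 6 for chromatin and control of S phase. All 43 were measured in each of the 3 comparisons, among 12861 genes tested in p53null AML at 10 h, 12838 in p53WT AML at 72 h and 12679 in p53WT AML at 10 h.

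The RNA-seq data came from 18 samples in 6 groups of 3. The groups were p53null MLL/ENL Nras AML after CX-5461 for 10 h and its vehicle group, p53WT MLL/ENL Nras AML after CX-5461 for 72 h and its vehicle group, and the same p53WT AML after CX-5461 for 10 h and its vehicle group. CX-5461 is a small molecule that inhibits RNA polymerase I, the enzyme that transcribes ribosomal RNA genes. In every group the leukemia carried MLL/ENL and Nras, had been transplanted into syngeneic C57BL/6 recipients that kept their own marrow cells, and was collected from the bone marrow as GFP-positive cells by flow sorting. The number of separate leukemias behind each genotype, the age of the mice and the dose are not given in the sources used here, nor whether samples came from separate mice, so p-values measure the spread between these samples, which may be technical. Counts per library were used for the 10 h comparison in p53WT AML. The other comparisons rest on the authors' deposited table of edgeR results for each, with no value per library.

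Before S phase, the origin recognition complex with CDC6 and CDT1 loads a ring of MCM2 to MCM7 onto DNA, a step called licensing. CDC45 and the GINS complex turn the ring into an active helicase, polymerase alpha with primase starts each strand, and polymerases delta and epsilon extend the strands on the PCNA clamp that replication factor C loads. Nucleotide supply through ribonucleotide reductase and thymidylate synthesis feeds the fork, and E2F factors drive many of these genes as cells enter S phase.

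Promoter sequences were looked at because E2F factors are known regulators of many of these genes. RefSeq windows (GRCm38.p6, 250 bases before to 50 after the start) were found for 37 of the 43 genes, 42 windows in all. The spellings TTTGGCGC, TTTCGCGC, TTTCCCGC and TTTGCCGC, which belong to the E2F type, were searched on both strands, with overlapping matches counted. At least 1 was found in 13 of 42 windows (31.0%), beside 2.26% of all 32851 windows. The share was 7 of 10 windows for licensing, 3 of 9 for polymerase, clamp and loader genes and 0 of 5 for nucleotide supply. The letters CCAAT, on either strand, were in 25 of 42 windows (59.5%), beside 37.4% of all windows. A match is a description of letters and not of binding. The 160 bases before the start are shown 5′ to 3′ on the strand of the gene, with E2F-type matches in capitals, for 3 licensing genes with matches, for Rrm2 as a nucleotide supply gene with no match, and for Ung as the gene called in both p53null AML and p53WT AML at 72 h.
Mcm6 (chr1:128359706-128359865, minus strand): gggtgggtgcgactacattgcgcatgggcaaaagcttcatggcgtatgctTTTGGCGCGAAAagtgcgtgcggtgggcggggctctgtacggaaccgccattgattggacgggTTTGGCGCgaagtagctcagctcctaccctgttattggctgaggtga
Mcm5 (chr8:75109349-75109508, plus strand): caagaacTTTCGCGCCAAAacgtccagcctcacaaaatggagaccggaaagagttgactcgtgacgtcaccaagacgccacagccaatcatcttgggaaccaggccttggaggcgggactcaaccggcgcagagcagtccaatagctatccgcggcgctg
Orc1 (chr4:108579294-108579453, plus strand): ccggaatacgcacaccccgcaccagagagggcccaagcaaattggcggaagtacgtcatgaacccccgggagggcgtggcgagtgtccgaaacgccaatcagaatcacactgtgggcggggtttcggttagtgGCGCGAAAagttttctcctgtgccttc
Rrm2 (chr12:24708094-24708253, plus strand): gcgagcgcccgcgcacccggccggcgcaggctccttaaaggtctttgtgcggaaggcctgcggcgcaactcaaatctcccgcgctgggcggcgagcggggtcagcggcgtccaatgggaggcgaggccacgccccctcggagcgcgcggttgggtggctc
Ung (chr5:114130275-114130434, plus strand): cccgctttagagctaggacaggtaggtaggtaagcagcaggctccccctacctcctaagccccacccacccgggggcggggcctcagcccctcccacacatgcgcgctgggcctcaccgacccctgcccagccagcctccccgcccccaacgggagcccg
Mcm6 held 3 matches, of which a pair overlaps in the longer run of capitals, Mcm5 held 2 that overlap and Orc1 held 1.

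The labels were first checked on the p53 pathway. Trp53 itself, which encodes p53, averaged 61.5 CPM (counts scaled by library size) over the p53null samples, 163 CPM over the 72 h samples and 169 CPM over the 10 h samples of p53WT AML in the authors' deposited tables, which were normalized separately. Reads outside a deleted part would still count, and the allele is not described in the labels. Cdkn1a, the p53 target that encodes the cell-cycle inhibitor p21, had 232, 262 and 247 CPM in the CX-5461 libraries of p53WT AML at 10 h, against 51.2, 55.3 and 48.7 CPM in the vehicle libraries. Its log2 fold change, CX-5461 over vehicle, was -0.03 in p53null AML and 1.70 in p53WT AML at 72 h in the authors' deposited tables, and 2.25 in p53WT AML at 10 h (edgeR, adjusted p = 8.19e-05). The leukemia gene Hoxa9 was present in all libraries, with 143, 131 and 133 CPM after CX-5461 and 132, 134 and 136 CPM after vehicle. Others of the 7 listed leukocyte and leukemia genes differed more at 10 h in p53WT AML. Ptprc was called lower, at -0.41 (edgeR adjusted p = 0.0344), and Mpo, Kit and Meis1 were at 0.27, 0.24 and 0.19 without a call. In the authors' deposited table Itgam was at -0.57 (FDR 0.00803) and Cd34 at -0.26 (FDR 0.503).

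Genes listed as markers of other marrow cell types differed between the arms at 10 h in p53WT AML. Summed over 15 erythroid genes, the level was 247, 452 and 354 CPM in the CX-5461 libraries and 5777, 19808 and 639 CPM in the vehicle libraries. For 13 neutrophil genes the sums were 2963, 4005 and 2869 CPM after CX-5461 and 10499, 19115 and 7069 CPM after vehicle. The 11 monocyte and macrophage genes summed to between 647 and 717 CPM after CX-5461 and between 864 and 1255 CPM after vehicle. Of these lists 10 of 15 erythroid, 10 of 13 neutrophil and 3 of 11 monocyte and macrophage genes fell by edgeR's test. That is 66.7%, 76.9% and 27.3%, beside 4.32% of all genes called lower. In no library was any of these genes at 0. The 3 B cell genes tested summed to between 88.2 and 101 CPM after CX-5461 and between 138 and 355 CPM after vehicle. The sums of the 2 megakaryocyte genes overlapped, with 1.19 to 2.14 CPM after CX-5461 and 2.06 to 8.94 CPM after vehicle, and 0 of them was called. Of the T and NK cell genes only Nkg7 was among those tested, at 91.1 to 92.2 CPM after CX-5461 and 56.1 to 71.6 CPM after vehicle. The part of these markers in the results at 10 h was not tested beyond a fit with the erythroid level as a covariate. That level, a mean log2 CPM, was 1.27 to 1.88 after CX-5461 and 3.39 to 8.15 after vehicle. It separated the arms, so that fit cannot fully tell the arm from the erythroid level. In bulk samples such as these, fewer cells of a type and less RNA per cell cannot be told apart. Nor can expression of these genes by the sorted leukemia cells be told apart from that by other cells.

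At 10 h in p53WT AML, none of the 43 genes passed the test in either direction. In simulated counts this fit called 7% of 100 genes with a log2 change of 0.3. That share is not the rate for the 43 genes, for which no simulation was made. Far fewer genes changed in the simulation than the 1027 called in these libraries, which makes the adjustment stricter. The median standard error was also smaller over the 43 genes (0.0638) than over all genes (0.0898). A missing call alone does not exclude a change of 0.3, and the intervals given below bound the change of each gene. The summed level of the 43 genes was 7729, 7836 and 7331 CPM in the CX-5461 libraries, against 7778, 7480 and 7604 CPM in the vehicle libraries. That is 7632 ± 266 and 7621 ± 150 CPM (SD, n = 3 each). The sums of the groups overlapped. Of all genes tested, 3.78% were called higher and 4.32% lower by edgeR's quasi-likelihood test at an adjusted p under 0.05, against 0 of 43 replication genes in each direction. At an unadjusted p under 0.05 there were 3 higher (Mcm10, Pole and Fen1) and 3 lower (Gins4, Lig1 and Slbp), 6.98% in each direction, against 14.7% higher and 16.7% lower of all genes. DESeq2 called 2 of the 43 lower, Lig1 and Slbp, and 0 higher, beside 2306 of all 12679 genes called in either direction. Limma-voom and the authors' deposited table called 0 of the 43. Over all genes the edgeR fit called 1027 with the 6 libraries, 23 to 25 when a CX-5461 library was left out, 1678 without vehicle library 1 and 19 with the erythroid level as a covariate, and it called 0 of the 43 each time. Where so few of all genes were called, 0 of the 43 carries little weight.

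In the fit without a covariate, the size of a change that these libraries leave room for was small for most of the genes. The 95% interval of the log2 fold change lay within 0.5 of 0 for 42 of 43 genes and within 0.3 for 34. Fen1 was the exception to the wider bound, with an interval that reached 0.59, and the lowest bound was -0.41, for Orc1. Standard errors ran between 0.0412 (Rpa1) and 0.121 (Orc1) on the log2 scale, with a median of 0.0638 over the replication genes and 0.0898 over all genes. The median log2 fold change was 0.01 over the 43 genes and 0.00 over all genes. These bounds do not cover the fit with the erythroid level as a covariate, a level that separated the arms. There the median was -0.11 for licensing and 0.21 for nucleotide supply, against -0.02 and 0.03 without it. For polymerase, clamp and loader genes it was 0.00 and for all 43 genes 0.01.

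**Figure D1:**
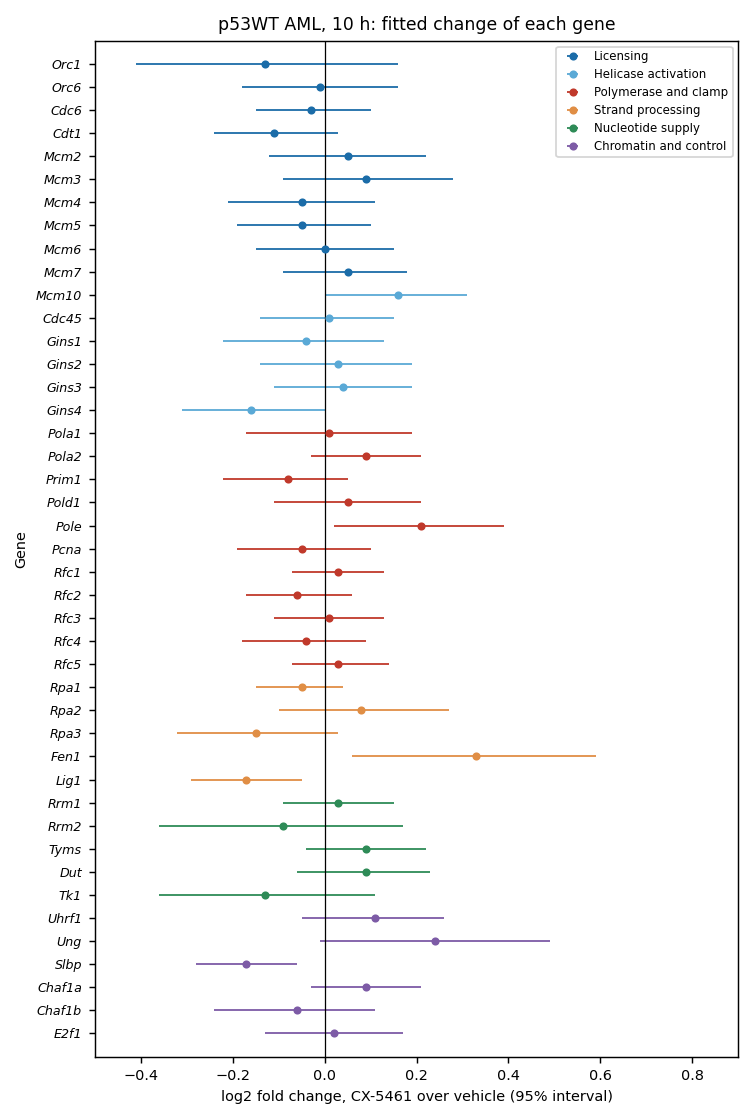
Fitted log2 fold change, CX-5461 over vehicle, of each of the 43 genes in p53WT AML at 10 h (x axis, log2 scale; points with 95% intervals from 3 libraries a group), coloured by role. The lowest bound is at -0.41 for Orc1 and the highest at 0.59 for Fen1.

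Groups of libraries did not overlap for 10 of the 43 genes. CX-5461 libraries were all higher for 5 genes (11.6%: Mcm10, Pola2, Pole, Fen1 and Chaf1a), where 19.9% of all genes tested separated in that direction. They were all lower for 5 genes (11.6%: Gins4, Rpa1, Rpa3, Lig1 and Slbp), where 19.1% of all genes did so. Both shares of the replication genes were thus below the background of the same libraries. For the other 33 genes the groups overlapped.

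**Figure D2:**
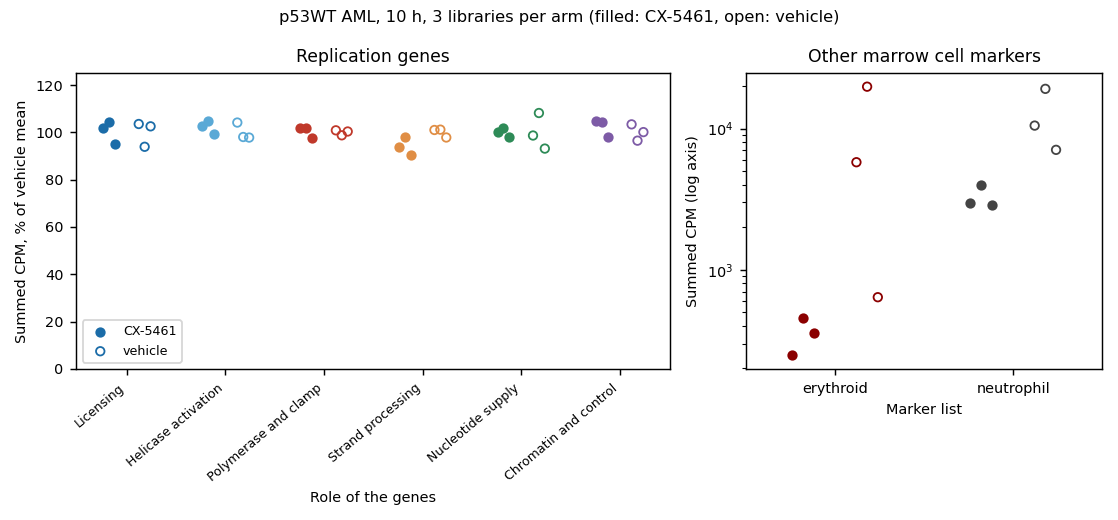
Summed CPM of each role as a percent of the vehicle mean (left, linear axis) and of erythroid and neutrophil markers (right, log axis) in p53WT AML at 10 h, with each library as a point, filled for CX-5461 and open for vehicle. The sums of the roles lie near the vehicle mean in all libraries, with the highest CX-5461 and lowest vehicle library of strand processing both at 647 CPM, while the marker sums of CX-5461 libraries lie below all vehicle libraries.

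Licensing genes made up the largest sum, with 2997, 3063 and 2793 CPM after CX-5461 and 3042, 2759 and 3013 CPM after vehicle. None of the 10 passed the test, 7 had a negative log2 fold change and the median was -0.02. Cdt1, which loads the MCM ring with CDC6, had 142, 136 and 129 CPM after CX-5461 and 147, 139 and 153 CPM after vehicle (log2 fold change -0.11 ± 0.0574 SE, adjusted p = 0.245). The groups of Cdt1 overlapped at a single pair of libraries. Mcm6, a subunit of the ring, had 601, 607 and 554 CPM after CX-5461 and 612, 554 and 600 CPM after vehicle, so that the groups covered nearly the same range (log2 fold change -0.00 ± 0.0641). Its partner Mcm7 had 433, 457 and 409 CPM after CX-5461 and 429, 405 and 424 CPM after vehicle (0.05 ± 0.0587). Mcm3 had 473, 483 and 446 CPM after CX-5461 and 466, 391 and 458 CPM after vehicle, with vehicle library 2 below the rest (0.09 ± 0.0788, adjusted p = 0.453). The other ring genes, Mcm2, Mcm4 and Mcm5, lay between -0.05 and 0.05 on the log2 scale. The loader Cdc6 was at -0.03 and the origin recognition genes Orc1 and Orc6 at -0.13 and -0.01, each with an interval across 0.

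Among genes that activate the helicase, a pair came closest to the threshold, in opposite directions. Mcm10, which helps start the assembled helicase, had 132, 130 and 122 CPM after CX-5461, against 121, 106 and 117 CPM after vehicle. Every CX-5461 library was above every vehicle library, and the log2 fold change of 0.16 ± 0.0649 SE had an adjusted p of 0.15. Gins4, a GINS subunit, had 46.6, 47.3 and 46.9 CPM after CX-5461, below its vehicle libraries at 50.5, 56.9 and 49.4 CPM. Its log2 fold change was -0.16 ± 0.0652 (adjusted p = 0.157). Cdc45, Gins1, Gins2 and Gins3 lay between -0.04 and 0.04, with overlapping groups. Once the erythroid level entered as a covariate, the log2 fold changes of Mcm10 and Gins4 were 0.03 and 0.02.

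The polymerase, clamp and clamp loader genes summed to 1644, 1638 and 1571 CPM after CX-5461 and 1625, 1591 and 1617 CPM after vehicle. Pole, the catalytic subunit of the leading-strand polymerase epsilon, had 112, 108 and 97.4 CPM after CX-5461 and 96.9, 82.9 and 94.9 CPM after vehicle. These groups were separated by a narrow margin (log2 fold change 0.21 ± 0.0794 SE, adjusted p = 0.13), and the value was 0.03 with the erythroid level as a covariate. Pola2, a subunit of polymerase alpha, had 97.6, 96.4 and 95.4 CPM after CX-5461 and 94.3, 86.2 and 91.8 CPM after vehicle (0.09 ± 0.0498, adjusted p = 0.273). Prim1, the catalytic primase subunit that lays down RNA primers, had 100.1, 96.4 and 90.0 CPM after CX-5461, overlapping the 100.1, 98.0 and 106 CPM after vehicle (-0.08 ± 0.0577). Pold1, the catalytic subunit of polymerase delta, had 246, 236 and 237 CPM after CX-5461 and 236, 209 and 248 CPM after vehicle, with vehicle on both sides of the CX-5461 range (0.05 ± 0.0679). The loader subunit Rfc2 had 141, 142 and 135 CPM after CX-5461 and 150.4, 139 and 145 CPM after vehicle (-0.06 ± 0.0499). Rfc4, of the same complex, had 51.1, 55.0 and 51.7 CPM after CX-5461 and 53.1, 57.3 and 52.4 CPM after vehicle (-0.04 ± 0.0587). Rfc5 had 120.2, 118 and 119 CPM after CX-5461 and 118, 118 and 112 CPM after vehicle (0.03 ± 0.0436). Groups of all 3 loader genes overlapped, and Rfc1, Rfc3, Pola1 and the clamp gene Pcna lay between -0.05 and 0.03.

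Strand processing held the genes with the 2nd smallest adjusted p and the lowest level. Lig1, the ligase that seals Okazaki fragments, had 284, 298 and 269 CPM after CX-5461 and 319, 319 and 318 CPM after vehicle. All CX-5461 libraries were below the narrow vehicle range, and the log2 fold change was -0.17 ± 0.0513 SE (edgeR adjusted p = 0.0786, DESeq2 adjusted p = 0.0244), or -0.18 in the fit with the erythroid covariate. Fen1, the nuclease that trims fragment ends, had 4.98, 5.42 and 5.45 CPM after CX-5461 and 4.44, 4.19 and 3.98 CPM after vehicle (0.33 ± 0.113, adjusted p = 0.106). Fen1 shared 84.2% of its exon bases with genes on the opposite strand in the GENCODE M21 annotation, and reads there cannot be assigned without strand, so its level and change are uncertain. Rpa3, the smallest subunit of the complex that coats single-stranded DNA, had 27.9, 28.2 and 26.7 CPM after CX-5461 and 29.8, 33.3 and 28.5 CPM after vehicle (-0.15 ± 0.0757, adjusted p = 0.234). Its partners Rpa1 and Rpa2 were at -0.05 and 0.08.

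Nucleotide supply genes summed to 1104, 1122 and 1083 CPM after CX-5461 and 1089, 1194 and 1028 CPM after vehicle, and none passed the test. Tyms, which makes thymidylate, had 119, 126 and 121 CPM after CX-5461 and 111, 122 and 111 CPM after vehicle (log2 fold change 0.09 ± 0.0554 SE, adjusted p = 0.29). Dut, the enzyme that removes dUTP, had 169.6, 169 and 155 CPM after CX-5461 and 149, 165 and 150.4 CPM after vehicle (0.09 ± 0.0608, adjusted p = 0.363). Both genes had overlapping groups. The wide vehicle range of this role came from vehicle library 2, which also had the highest erythroid sum. In that library Rrm2, the small subunit of ribonucleotide reductase, reached 339.9 CPM, against 268 and 249 CPM in the other vehicle libraries and 271, 274 and 259 CPM after CX-5461. Tk1, the thymidine salvage kinase, stood at 146 CPM in that library, against 120.0 and 112 CPM in the other vehicle libraries and 112, 116 and 119 CPM after CX-5461. Without that library the log2 fold changes of Rrm2 and Tk1 were 0.05 and -0.01, against -0.09 and -0.13 with it. In the fit with the erythroid covariate they were 0.30 and 0.23, neither of them called. The large reductase subunit Rrm1 was at 0.03.

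In the chromatin and control role, Slbp had the smallest adjusted p of the 43 genes. Slbp binds the stem-loop of replication-dependent histone mRNAs, and it had 174, 172 and 169 CPM after CX-5461 and 188, 202 and 188 CPM after vehicle. All CX-5461 libraries were below all vehicle libraries (log2 fold change -0.17 ± 0.0474 SE, edgeR adjusted p = 0.0667, DESeq2 adjusted p = 0.0205), and the value was -0.08 in the fit with the erythroid covariate. Ung, the uracil-DNA glycosylase that removes uracil from DNA, had 42.4, 42.5 and 34.7 CPM after CX-5461 and 36.9, 30.5 and 34.1 CPM after vehicle. Its groups overlapped, because CX-5461 library 3 was below vehicle library 1 (0.24 ± 0.106, adjusted p = 0.177), and the value was 0.08 in the fit with the erythroid covariate. Uhrf1, which carries DNA methylation through replication, was at 0.11, the histone chaperone genes Chaf1a and Chaf1b at 0.09 and -0.06, and the S-phase transcription factor E2f1 at 0.02.

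**Figure D3:**
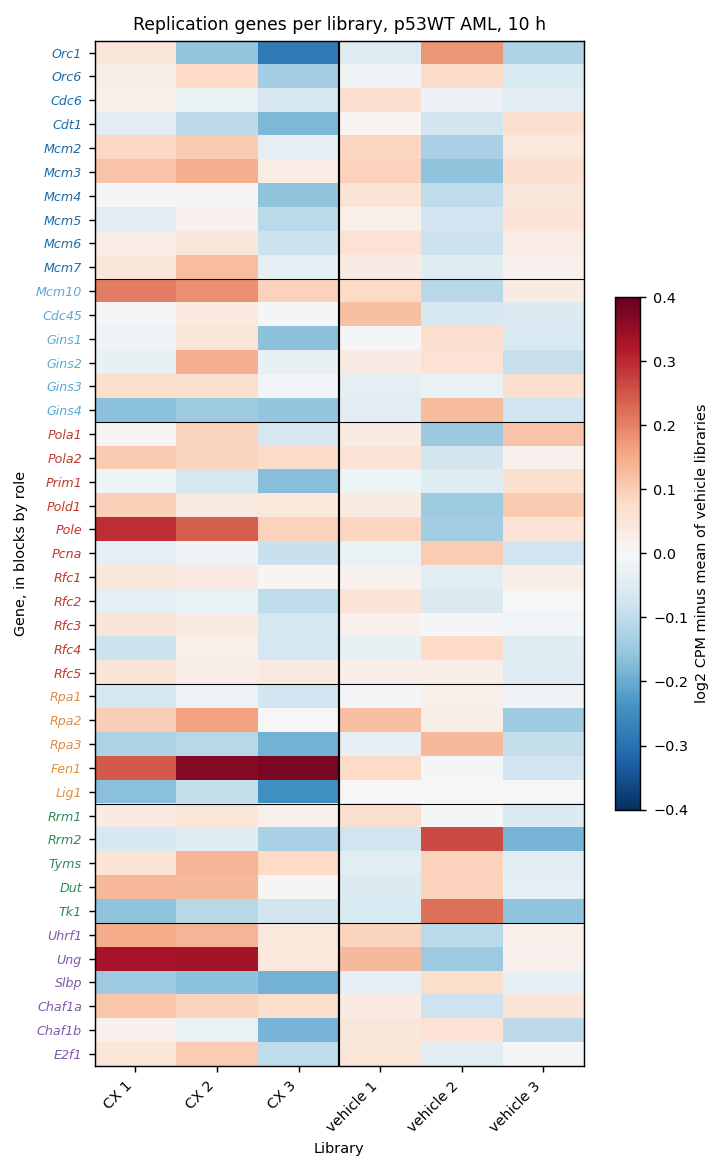
Log2 CPM of each replication gene in each library of p53WT AML at 10 h (columns, CX-5461 left of vehicle) minus the mean of the vehicle libraries, in colour, with genes in rows by role. Vehicle library 2 stands high for Rrm2 and Tk1, at 339.9 and 146 CPM, and low for Mcm3, at 391 CPM.

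At 72 h in p53WT AML, 11 of the 43 genes fell and 0 rose in the authors' deposited table. That is 25.6% of the replication genes called lower, beside 15.1% of all 12838 genes called lower and 16.1% called higher at a false discovery rate (FDR) under 0.05. The median log2 fold change in the authors' deposited table was -0.13 over the replication genes and -0.01 over all genes, and 32 of 43 were negative (74.4%, against 51.3% of all genes). No test of the list was made. Among the called genes the change in level ran between -29.7% (Ung) and -13.3% (Rfc5) in the authors' deposited table.

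Genes of the polymerase, clamp and loader role gave 5 of the 11 called genes, which is 45.5% of the role, beside 15.1% of all genes called lower. In this role 10 of 11 values were negative, with a median of -0.20 in the authors' deposited table. Pold1 fell by 0.47 on the log2 scale (FDR 1.37e-07 in the authors' deposited table), a change in level of -27.7%. Prim1 fell by 0.36 there (authors' deposited table, FDR 0.000521). The clamp loader subunits Rfc2, Rfc4 and Rfc5 fell by 0.24, 0.21 and 0.21 in the authors' deposited table (FDR 0.00944, 0.0456 and 0.0333). The clamp itself did not pass, with Pcna at -0.05, nor did Pola1 at -0.20 (FDR 0.0561), Rfc3 at -0.15, Pola2 at -0.16, Rfc1 at -0.13 and Pole at 0.03 in the authors' deposited table. Rfc2, Rfc4 and Rfc5 share 15.1%, 12.7% and 10.7% of their exon bases with neighbouring genes in GENCODE M21, which leaves part of their reads uncertain.

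Licensing gave 3 called genes of 10 at 72 h (30.0%, beside 15.1% of all genes called lower), with a median of -0.12 and 8 negative values in the authors' deposited table. Mcm6 fell by 0.27 (FDR 0.000673), Cdt1 by 0.25 (FDR 0.0111) and Mcm7 by 0.22 (FDR 0.0377) in the authors' deposited table. Mcm7 shares 12.6% of its exon bases with other genes. The remaining subunits of the ring, Mcm3 at -0.19 (FDR 0.0757), Mcm5 at -0.14, Mcm2 at -0.07 and Mcm4 at -0.07, were also negative but not called in the authors' deposited table. Cdc6 had the highest value of the 43 genes, 0.18 (FDR 0.136, the authors' deposited table), and Orc1 and Orc6 were at -0.11 and 0.02. In the helicase role all 6 values were negative, with Gins4 at -0.22 called (FDR 0.0462) and Cdc45, Gins1, Mcm10, Gins2 and Gins3 between -0.17 and -0.08 in the authors' deposited table.

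Nucleotide supply gave 0 called genes of 5 at 72 h, with a median of -0.00, and 1 at an unadjusted p under 0.05 in the authors' deposited table. Of all genes 15.1% were called lower and 16.1% higher there, so 0 of 5 genes does not set this role apart from the background. Dut was lowest at -0.19 (FDR 0.0629), followed by Tk1 at -0.07, Rrm1 at -0.00, Rrm2 at 0.03 and Tyms at 0.04 in the authors' deposited table. The difference between the roles was not tested. In strand processing Rpa3 fell by 0.36 (FDR 0.00228), while Lig1 was at -0.16, Rpa1 at -0.02, Rpa2 at 0.01 and Fen1 at 0.16 without a call in the authors' deposited table. In the chromatin and control role Ung fell by 0.51 (FDR 3.08e-07), the largest change of the 43 genes in the authors' deposited table, and the other 5 (Uhrf1, Slbp, Chaf1a, Chaf1b and E2f1) lay between -0.04 and 0.05.

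Of the licensing genes whose promoters are shown, Mcm6, with 3 E2F-type matches, fell at 72 h, while Mcm5 and Orc1 were at -0.14 and -0.11 without a call in the authors' deposited table. Rrm2 and Ung, with no such match in the window, were at 0.03 and -0.51 in the authors' deposited table. Among genes not shown, Cdt1, Mcm7 and Pold1 had a match and fell, at -0.25, -0.22 and -0.47 in the authors' deposited table. Cdc6, Mcm3, Gins3, Lig1, Pola1, Rfc3 and Uhrf1 had a match without a call, with Cdc6 at 0.18 there. Prim1 and Rpa3 fell with no match in the window. A relation between matches and changes was not tested.

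Genes of these marker lists moved at 72 h as well, and which cells expressed them cannot be told from bulk samples. There, 9 of 15 erythroid genes and 13 of 13 neutrophil genes rose in the authors' deposited table, with median log2 fold changes of 1.18 and 1.08. Of all genes 16.1% were called higher and 15.1% lower in it. The globin genes Hba-a1, Hba-a2, Hbb-bs and Hbb-bt were not called, at -0.23 to -0.09 in the authors' deposited table. The 11 monocyte and macrophage genes had 5 that rose and 2, Ccr2 and Ly86, that fell in the authors' deposited table. Of 7 leukocyte and leukemia genes, Kit, Cd34 and Mpo fell, with log2 fold changes of -0.87, -1.23 and -0.34, Itgam and Ptprc rose, at 0.93 and 0.21, and Meis1 and Hoxa9 were not called, at 0.12 and -0.06, in the authors' deposited table. The part of these markers in the lower replication genes at 72 h was not tested.

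In p53null AML at 10 h, Ung was the only replication gene called. Its log2 fold change was -0.43, a change in level of -25.7%, with an FDR of 0.0083 in the authors' deposited table. Of the 12861 genes in the authors' deposited table, 0.0389% were called lower, which is 5 genes with Ung among them, and 0.148% were called higher, with 0 of the 43 replication genes among those. At an unadjusted p under 0.05 there were 3 replication genes in the authors' deposited table: Ung, Tk1 at -0.16 (FDR 0.578) and Mcm10 at 0.15 (FDR 0.663). That share, 6.98%, was near the 6.07% of all genes in the authors' deposited table. The 43 values had a median of -0.02, and 30 of them were negative (69.8%, against 50.8% of all genes). No gene of the erythroid, neutrophil or monocyte and macrophage lists was called there, by the authors' deposited table.

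The log2 fold change of Ung was thus -0.43 without p53 and -0.51 at the later time with p53 in the authors' deposited tables, and 0.24, with a 95% interval between -0.01 and 0.49, in p53WT AML at 10 h. The difference between these comparisons was not tested, since they rest on separate tables with counts for only the last. Its mean level over both arms was 29.6 CPM for the p53null samples, 31.3 CPM for the 72 h samples and 36.8 CPM for the 10 h p53WT samples in the authors' deposited tables.

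The 11 genes that fell at 72 h did not share a direction at 10 h. Of these genes 6 were negative in p53null AML at 10 h and 7 in p53WT AML at 10 h. Pold1 was at 0.02 in p53null AML at 10 h and -0.47 in p53WT AML at 72 h in the authors' deposited tables, and at 0.05 in p53WT AML at 10 h. Prim1 was negative each time, at -0.12 in p53null AML and -0.36 at 72 h in the authors' deposited tables and at -0.08 in p53WT AML at 10 h. Over all 43 genes, 11 were negative in the 3 comparisons and 2, Fen1 and Tyms, positive in the 3. By role, the medians for p53null AML, the 72 h samples and the 10 h samples of p53WT AML were -0.04, -0.12 and -0.02 for licensing and -0.02, -0.20 and 0.01 for polymerase, clamp and loader genes, where the first pair of each comes from the authors' deposited tables. For nucleotide supply they were -0.03, -0.00 and 0.03, with the first pair again from the authors' deposited tables.

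**Figure D4:**
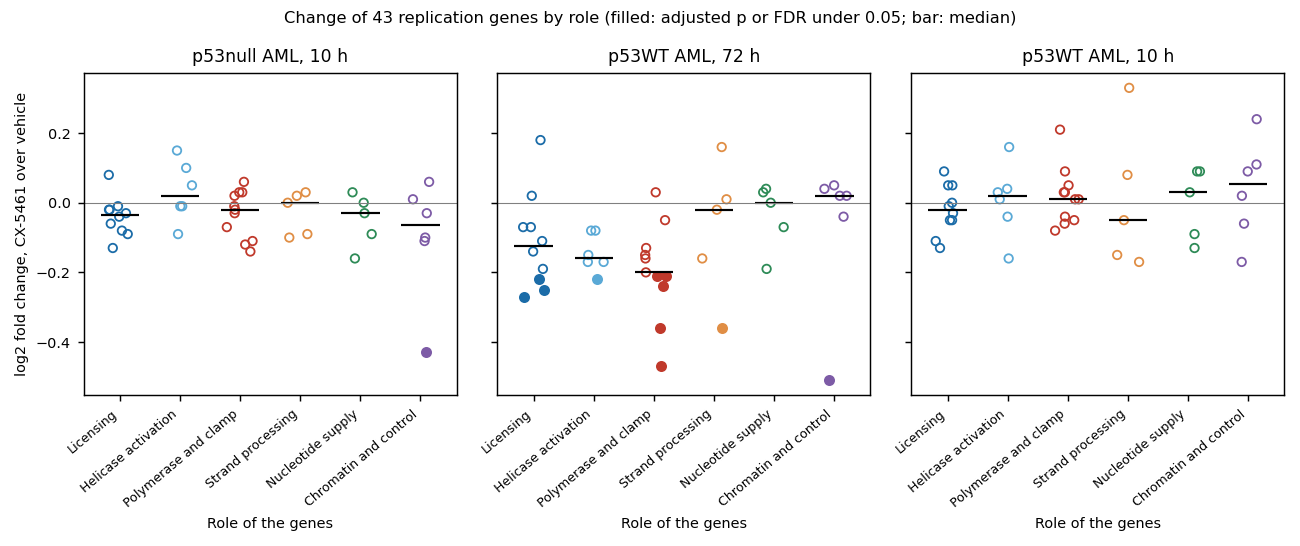
Log2 fold change, CX-5461 over vehicle, of the 43 genes by role in p53null AML at 10 h (left), p53WT AML at 72 h (middle, both from the authors' deposited tables) and p53WT AML at 10 h (right, fit to the counts), with a point per gene, called genes filled and role medians as lines. Called points are Ung at -0.43 in p53null AML and 11 genes between -0.51 and -0.21 at 72 h.

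Other genes of the pathway, 66 in number and all measured, were described beside the 43. In p53null AML at 10 h, 0 were called in the authors' deposited table, and 10 had an unadjusted p under 0.05, 2 of them higher (3.03%, against 3.15% of all genes) and 8 lower (12.1%, against 2.92% of all genes). At 72 h in p53WT AML, 5 rose (7.58%) and 12 fell (18.2%) in the authors' deposited table, with a median of -0.09. Over all genes the shares were 16.1% higher and 15.1% lower in the authors' deposited table, so that the share of these genes called lower was near the background. The falls with the smallest p were Dscc1 at -0.53, which belongs to an alternative clamp loader, Mcm8 at -0.48, an MCM paralog of recombination repair, Pole2 at -0.37 and Pole4 at -0.30, subunits of polymerase epsilon, and Timeless at -0.36, a fork protection factor, all in the authors' deposited table. Of the 26 listed fork genes 9 fell (34.6%, beside 15.1% of all genes) in the authors' deposited table. In it 1 fork gene, the topoisomerase gene Top1 at 0.28, rose (3.85%, beside 16.1% of all genes). Of the 13 genes that control S-phase entry, 4 rose and 0 fell in the authors' deposited table (30.8% higher, beside 16.1% of all genes), with a median log2 fold change of 0.05 and 4 negative values. Those that rose were the E2F genes E2f2 at 0.66 (FDR 9.37e-09) and E2f3 at 0.31 (FDR 0.0455), and the cyclin E genes Ccne1 at 0.57 (FDR 2.56e-07) and Ccne2 at 0.24 (FDR 0.0444), all from the authors' deposited table. None of the 9 other nucleotide genes was called at 72 h in the authors' deposited table.

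At 10 h in p53WT AML 3 of the 66 genes passed edgeR's test, 2 higher (3.03%, against 3.78% of all genes) and 1 lower (1.52%, against 4.32%). Dctd, which deaminates dCMP, rose to 37.6, 34.2 and 33.5 CPM after CX-5461, against 25.2, 17.3 and 24.0 CPM after vehicle (log2 fold change 0.66, adjusted p = 0.0421). E2f3 rose to 51.8, 48.2 and 47.3 CPM after CX-5461, against 41.1, 37.7 and 38.4 CPM after vehicle (0.33, adjusted p = 0.0364). Samhd1, which breaks down dNTPs, fell to 134, 146 and 166 CPM after CX-5461, against 186, 239 and 200 CPM after vehicle (-0.49, adjusted p = 0.0481). The groups of libraries did not overlap for any of the 3 genes, and vehicle library 2 was in each the vehicle library farthest from the CX-5461 libraries. Each of the 3 calls was lost when any CX-5461 library was left out (edgeR adjusted p between 0.111 and 0.188) and that of Samhd1 also without vehicle library 3 (adjusted p = 0.0571) or by limma-voom (adjusted p = 0.055). Given the erythroid level as a covariate, the log2 fold changes of Dctd, E2f3 and Samhd1 were 0.28, 0.31 and -0.24, none of them called. E2f3 had an FDR of 0.0922 in the authors' deposited table.

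Per length of exon, levels of the 43 genes differed widely, while their fitted log2 fold changes at 10 h in p53WT AML lay between -0.17 and 0.33. In p53WT AML at 10 h Pcna was highest, with 189.8 ± 4.83 CPM per kb after CX-5461 and 196 ± 12.6 CPM per kb after vehicle (SD, n = 3 each), and Fen1 lowest, at 2.18 CPM per kb after CX-5461 and 1.73 after vehicle. The median over the genes in vehicle libraries was 26.9 CPM per kb. Although the ring holds its 6 subunits in equal number, their mRNA levels in vehicle libraries covered a 2.66-fold range, with Mcm2 at 51.8 and Mcm5 at 138 CPM per kb. Lengths came from GENCODE M21, which is not the annotation the authors counted with, and join the exons of all transcripts of a gene. Mcm2 was given 6956 bases in this way, against 3589 to 4666 for the other ring genes. Before division by length Mcm2 was not the lowest in vehicle libraries, at 360.4 CPM against 271 CPM for Mcm4. The range between the ring genes thus depends on the lengths used. Gins2 and Chaf1a share 67.3% and 52.5% of their exon bases with other genes there, so that their levels are uncertain.

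**Figure D5:**
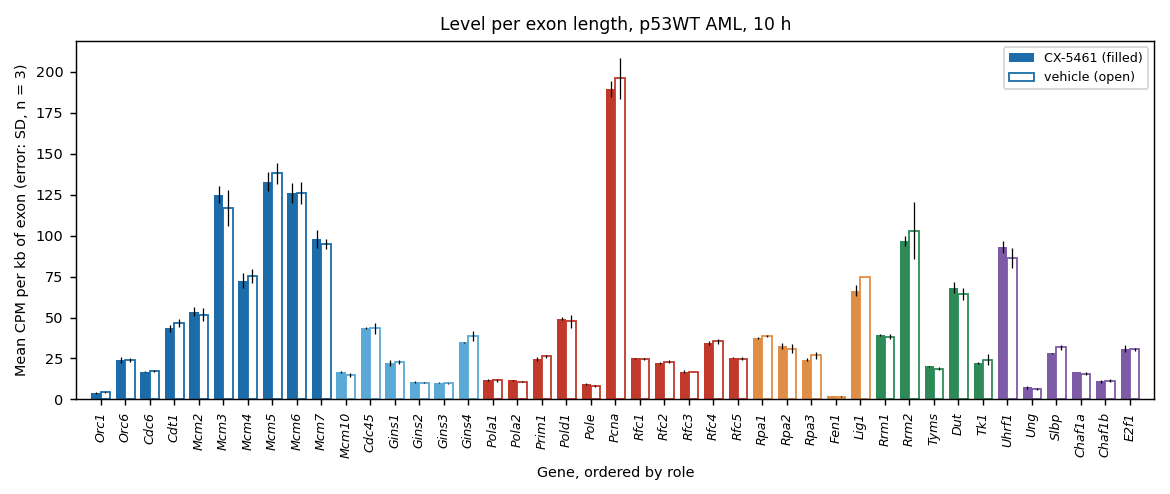
Mean CPM per kb of exon of the 43 genes in p53WT AML at 10 h, ordered by role, with CX-5461 as filled and vehicle as open bars and the SD of 3 libraries as error bars. Pcna is highest (189.8 CPM per kb after CX-5461, 196 after vehicle) and Fen1 lowest (2.18 after CX-5461, 1.73 after vehicle).

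The authors' deposited mean levels were lower in the p53null than in the p53WT table at 10 h for 36 of the 43 genes. The median log2 ratio of these means, p53null over p53WT, was -0.27 over the replication genes and -0.07 over all shared genes in the authors' deposited tables. Rfc3 had the lowest ratio, -1.07, and Tk1 the highest, 0.22. The tables were normalized separately and each mean covers both arms, so these ratios were not tested.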

How the data were processed

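RNA-seq was done on sorted leukemia cells of 18 samples in 6 groups of 3, with a library kit that does not mark strand, per the labels. The tools named are edgeR, HTSeq, Bowtie and CASAVA 1.8.2, and the build is mm9, per the submitters' processing notes. The annotation and settings are not given in the sources used here. The authors deposited raw read counts per gene for 6 libraries, those of the p53WT comparison at 10 h, with totals between 21578685 and 48118513 counts. The authors also deposited, per the file headers, log2 fold changes and log2 mean CPM from edgeR for each of the 3 comparisons. Deposited p-values and the FDR come from the authors' edgeR test, and the FDR equals the Benjamini-Hochberg adjustment of those p-values over each table. Their log2 fold change at 10 h correlated at 1.00 across genes with the CX-5461 over vehicle ratio of the counts, and the other tables were taken to have the same direction.

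Count columns carry numbers 1 to 3 and were assigned to groups, not to titled samples. Ensembl IDs were matched to symbols for 12366, 12362 and 12237 genes of the p53null 10 h, p53WT 72 h and p53WT 10 h tables. Counts were fitted with edgeR 4.0.16 in R 4.3.3 (TMM, quasi-likelihood test, two-sided, 4 residual degrees of freedom, no filter beyond that of the table) and adjusted by Benjamini-Hochberg over all 12679 genes. All adjusted p-values without another name are from this fit, and intervals are at 95%. DESeq2 1.42.0, limma 3.58.1 (voom), other scaling, a minimum mean of 5 CPM, left-out libraries and the erythroid level as covariate were alternatives. The fit was tested on simulated counts of 12679 genes. It called 89% of 100 genes changed by 1 on the log2 scale and 7% of 100 changed by 0.3, with 6 false calls. CPM used TMM-scaled library sizes. Values per library are given for genes called in any comparison and for the 2 genes of each role with the smallest p at 10 h; of the other pathway genes at most 5 called per comparison and direction are named. Rrm2, Tk1 were given per library after their values were seen. The genes, roles and lists were chosen with earlier results of these data known. Promoter windows came from RefSeq.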

Additional observations from a re-analysis of the deposited data

How the results depend on the processing

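No paired analysis was possible because the count columns carry the numbers 1 to 3 while the titles of these samples carry others, and the other tables hold no counts. In p53WT AML at 10 h edgeR called 0 replication genes in each direction under every scaling, filter, left-out library and covariate tried. The count was also 0 by limma-voom and in the authors' deposited table, and 2 (both lower, Lig1 and Slbp) by DESeq2. Without a CX-5461 library only 23 to 25 of all genes were called, and 19 with the covariate. The count of 0 in those fits therefore cannot show that the result is stable. Of 558 values of the 43 genes under these alternatives, 47 changed sign, in 25 genes, and none of these was called. DESeq2 called 2306 of all genes, against 1027 in the main test. Leaving out 1 library in turn put the median log2 fold change of helicase activation genes between -0.02 and 0.03, of licensing genes between -0.05 and 0.02 and of all 43 genes between -0.03 and 0.04. When the erythroid level was a covariate, the medians were -0.11 for licensing, 0.05 for strand processing, 0.21 for nucleotide supply and -0.01 for chromatin and control, against -0.02, -0.05, 0.03 and 0.05 without it; the cause was not tested. Library size alone moved the median of all genes to 0.04 and that of strand processing to -0.01. A minimum mean of 5 CPM removes Fen1, and the strand processing median was then -0.04 in p53null AML at 10 h, -0.09 in p53WT AML at 72 h and -0.10 in p53WT AML at 10 h. At an FDR under 0.01, 6 replication genes were called lower at 72 h in the authors' deposited table, against 11 at 0.05. The share of all genes called lower at 0.01 is not given here, so the 6 cannot be set against a background. The smallest adjusted p at 10 h, that of Slbp, ran between 0.0666 and 0.212 over the left-out libraries. The largest standard errors were those of Orc1 (0.121), Fen1 (0.113) and Rrm2 (0.113); what part depth has in them was not tested.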

Other observations

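E2f2, a member of the E2F family of transcription factors, had 47.0, 49.2 and 47.3 CPM after CX-5461 and 88.6, 175 and 66.0 CPM after vehicle in p53WT AML at 10 h, a log2 fold change of -1.20 (edgeR adjusted p = 0.0637), and was described after its values were seen. In the authors' deposited table E2f2 was called lower at 10 h in p53WT AML (FDR 0.000476). At 72 h its log2 fold change was 0.66 in the authors' deposited table (FDR 9.37e-09), and it was 0.01 in p53null AML at 10 h. The highest vehicle library, number 2, also had the highest erythroid sum, 19808 CPM, and the order of the vehicle libraries was the same for both. Ccne1 and Ccne2, the cyclin E genes that rose at 72 h, were at -0.26 and -0.28 in p53null AML at 10 h (FDR 0.19 and 0.23) in the authors' deposited table.

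Mean levels over both arms were close at both times in p53WT AML. The median log2 ratio of the means, 72 h over 10 h, was -0.09 over the 43 replication genes and -0.07 over all shared genes in the authors' deposited tables, and it was lowest for Tk1 (-0.44) and highest for Cdt1 (0.10).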
